A study of Caenorhabditis elegans with 12 samples.

Results

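KLF-1 peaks that overlapped the gene assigned to them numbered 633 of the 3116 peaks in 6 ChIP-seq peak lists. A peak is a stretch of genome with more reads in the ChIP library than in its input library. A peak belonged to this set where it shared at least 1 bp with the gene on its own line of the list, and no value of enrichment entered the choice. Of the 1652 peaks with an assigned gene, 38.3% met this rule, and the other 1019 lay upstream of their gene. The smallest overlap was 1 bp and 34 of the 658 pairs of peak and gene shared under 50 bp, whereas 43 pairs of peak and gene on the other side of the rule lay within 50 bp of each other, the closest with a gap of 2 bp.

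The peaks came from whole animals on day 1 of adulthood, fed the HT115 bacterial strain with plasmid L4440. WT animals (N2) and *isp-1;ctb-1* animals, the mutant with alleles *qm150* of *isp-1* and *qm189* of *ctb-1*, gave 3 ChIP and 3 input libraries each, 12 in all. The mutated genes encode 2 subunits of complex III of the respiratory chain. All animals carried the same integrated transgene (Is[pvha-6::klf-1-yfp]), crossed from one WT line into the mutant, in which the intestinal *vha-6* promoter drives KLF-1 fused to YFP, and the pull-down used GFP-Trap. Both strains therefore hold KLF-1 above its native level and mainly in the intestine, and no ChIP from animals without the fusion was analysed here. The WT lists held 577, 665 and 303 peaks and the mutant lists 620, 386 and 565.

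Krüppel-like factors are zinc finger transcription factors that bind GC-rich and CACCC-like elements, mostly in promoters and enhancers. Worm KLF-1 acts in the intestine, the main organ of fat storage and detoxification. A factor of this kind can be found at the 5′ end of a gene, where its promoter usually lies, or inside the gene, where introns of worm genes can hold enhancers or promoters of alternative transcripts. Many *C. elegans* transcripts are trans-spliced, so that an annotated 5′ end need not be the base at which transcription starts. The reference used here holds no sequence, and none is shown.

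The set covers only part of the genome. No peak on chromosome III had an assigned gene in any list, although 607 peaks lay there, and 140 of them overlapped a protein-coding gene of the RefSeq table. The 8 peaks on mitochondrial DNA had none either. The 633 gene-overlapping peaks were thus 25.3% of the 2501 peaks on the other 5 chromosomes, where only 32 of 849 unassigned peaks overlapped a RefSeq protein-coding gene. They numbered 200 on chromosome I, 116 on II, 91 on IV, 146 on V and 80 on X. Genes on chromosome III, such as *klf-1* itself, could not enter the set.

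The numbers of gene-overlapping peaks did not separate the strains. They were 112, 130 and 44 in the WT lists and 162 and 66 in mutant libraries 1 and 2, with mutant library 3 between them. The means were 95.3 ± 45.4 and 115.7 ± 48.1 (SD, n = 3 each, two-sided exact permutation p = 0.6, where 3 libraries against 3 cannot go below 0.1). As a share of the peaks with an assigned gene they made up 40.4, 40.5 and 29.3% in WT and 40.7, 33.8 and 38.3% in the mutant (exact permutation p = 0.8). Whether the 3 libraries stem from separate worm cultures is not in the labels, so these p values measure the spread between libraries, which may be technical.

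The strains differed in which part of the gene was covered. A gene-overlapping peak lay over the annotated 5′ end in 12 of 112, 19 of 130 and 4 of 44 cases in WT, or 10.7, 14.6 and 9.09%. In the mutant it did so in 80 of 162, 22 of 66 and, in mutant library 3, 38 cases, or 49.4, 33.3 and 31.9%. Every mutant library was above every WT library. The means were 11.5 ± 2.84% and 38.2 ± 9.70% (SD, n = 3 each), a difference of 26.7 percentage points with an exact permutation p of 0.1, the smallest possible, and an adjusted exact permutation p of 0.229 over the 16 quantities compared between the strains. The test of this share was added after the shares were seen.

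**Figure D1:**
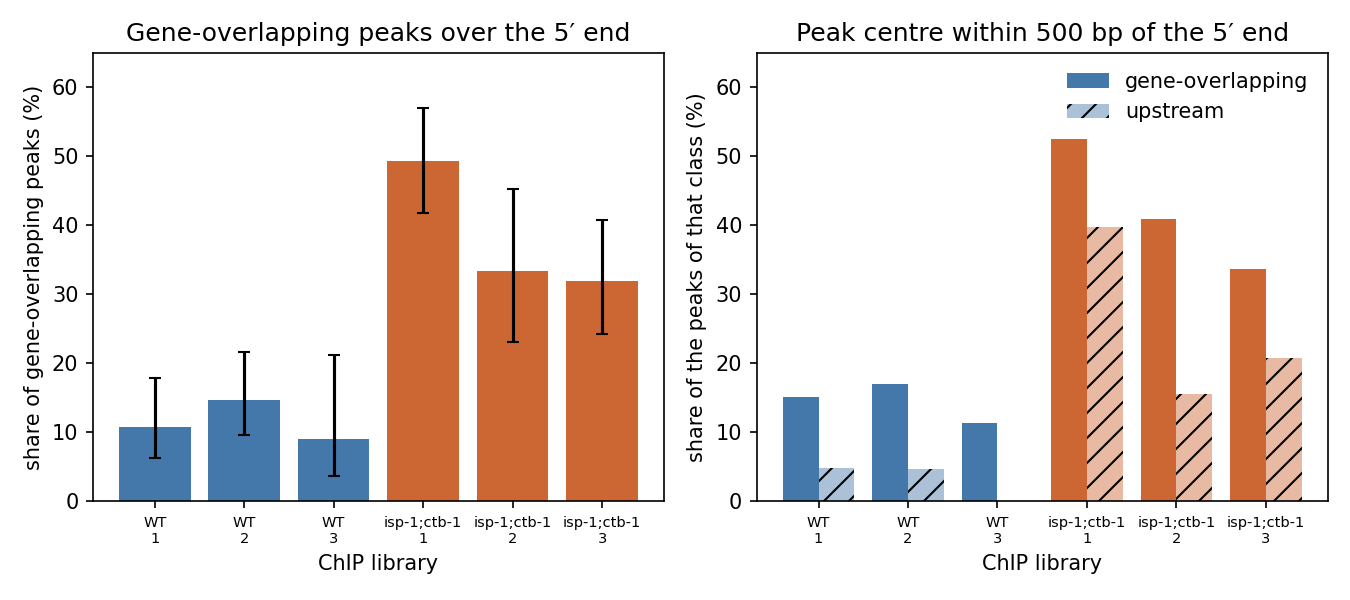
Left, share of gene-overlapping peaks that lay over the 5′ end of their gene in each ChIP library (%), with 95% Wilson intervals for counting error; right, share of gene-overlapping (solid) and of upstream peaks (hatched) whose centre lay within 500 bp of the 5′ end (%). The 3 WT libraries reach at most 14.6% on the left and the 3 mutant libraries stand at 31.9% or above.

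Wilson 95% intervals of the single libraries cover counting error only. They ran from 3.59 to 21.7% over the WT libraries and from 23.2 to 57.0% over mutant libraries. Peaks are not replicates and some lie together in 1 gene, so these intervals do not test the strain difference. Counted by gene rather than by peak, the difference was 22.5 percentage points, and with the 303 best peaks of every list it was 31.8. Under the threshold of a fold enrichment over 1.5 and a deposited p under 0.05 it was 13.4 and the strains overlapped (exact permutation p = 0.3), with 5 gene-overlapping peaks left in mutant library 2. When at least 50% of a peak had to lie in the gene, a rule that drops many peaks astride a 5′ end, it was 7.96.

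Distances from the gene start gave the same order. The centre of the median WT peak lay 3887 bp inside the gene from its 5′ end (quartiles 1225 and 11113 bp, 292 pairs), against 1019 bp for the mutant (quartiles -32.5 and 3946 bp, 366 pairs). Library medians were 3541, 4041.5 and 3883 bp in WT and 221.5, 1027 and 1720.5 bp in the mutant. Every pair counted singly in these values, so long genes with many peaks weigh on them. *anc-1* held 35 peaks, ZC247.1 31, and *ttn-1* and ZC178.2 23 each over both strains. The distances were not recomputed with 1 value per gene. The 500 bp just before the annotated 5′ end held the centre of 23 WT pairs (7.88%) and of 114 mutant pairs (31.1%).

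**Figure D2:**
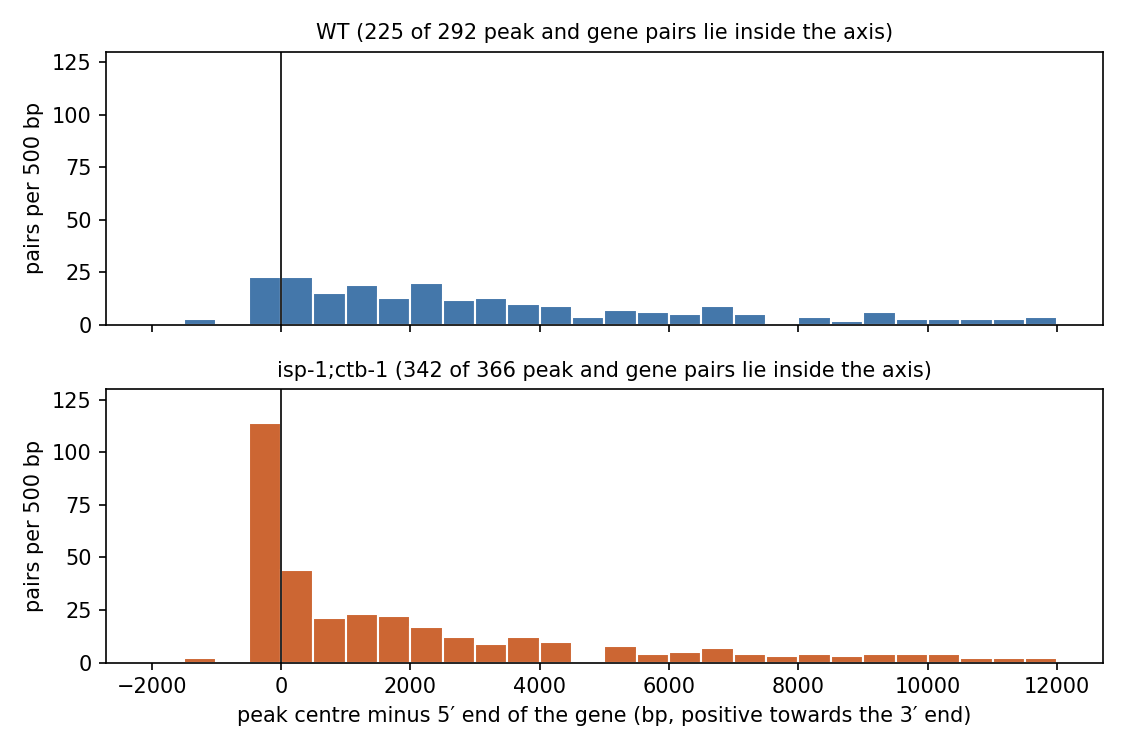
Number of pairs of peak and gene per 500 bp (vertical axis) by the distance of the peak centre from the 5′ end of the gene (bp, positive towards the 3′ end), for WT above and *isp-1;ctb-1* below, all libraries of a strain together. The mutant pairs pile up in the 500 bp before the 5′ end, with 114 pairs against 23 in WT. Peaks in the same gene are counted singly.

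Upstream peaks showed the same order. Among them the centre lay within 500 bp of the 5′ end in 4.85, 4.71 and 0% of cases in WT and in 39.8, 15.5 and 20.8% in the mutant (exact permutation p = 0.1). Gene-overlapping peaks gave 15.2, 16.9 and 11.4% against 52.5, 40.9 and 33.6% on that measure (exact permutation p = 0.1). The lists give no read numbers per peak.

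Peaks over the 5′ end were the stronger ones in every library. Their median fold enrichment over input was 2.03, 2.05 and 1.83 in WT and 2.03, 1.91 and 2.1 in the mutant. Peaks in the gene body had medians of 1.90, 1.86 and 1.61 in WT and 1.91, 1.76 and 1.75 in the mutant. The log2 ratio was 0.15 ± 0.07 (SD, n = 6 libraries, higher in 6 of 6, two-sided exact sign-flip permutation p = 0.03125, the smallest that 6 libraries allow, adjusted 0.0625 with the length of the same peaks). This test too was added after the values were seen, and the WT library 3 value rests on 4 peaks over a 5′ end.

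All gene-overlapping peaks together stood 0.10 ± 0.12 on the log2 scale above the upstream peaks of their list in median fold enrichment (SD, n = 6, higher in 5 of 6, exact sign-flip permutation p = 0.0625, adjusted 0.125). Medians were 1.90, 1.89 and 1.64 for gene-overlapping peaks in WT and 2.01, 1.83 and 1.93 in the mutant. Upstream peaks gave 1.84, 1.83 and 1.67 in WT and 1.94, 1.49 and 1.69 in the mutant. The excess passed 0.05 with means in place of medians, with 1 value per gene and under the stated threshold (exact sign-flip permutation p = 0.03125 each). In length the log2 ratio was -0.15 ± 0.22 (SD, n = 6, exact sign-flip permutation p = 0.156), with medians of 305 to 457.5 bp for gene-overlapping peaks. A longer peak meets a gene more often by geometry alone. Split by part, the median fold enrichment of peaks over the 5′ end stood 0.20 ± 0.11 above upstream peaks on the log2 scale (SD, n = 6, higher in 6 of 6, exact sign-flip permutation p = 0.03125, adjusted 0.0625). That of body peaks stood 0.05 ± 0.11 above them (SD, n = 6, higher in 4 of 6, exact sign-flip permutation p = 0.375). This split was not among the planned comparisons.

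The remaining 450 peaks lay wholly within a gene body and 8 covered the 3′ end alone. Body peaks made up 87.5, 84.6 and 88.6% of the gene-overlapping peaks of the WT lists and 49.4, 65.2 and 67.2% of those of the mutant lists. Their number did not differ between strains beyond the spread, at 98, 110 and 39 against 80, 43 and 80 (exact permutation p = 0.6). The genes around body peaks were long, with a median length of 6407 to 7248 bp in every library. Genes with a covered 5′ end had medians of 796.5 to 1265 bp in WT and 1652.5 to 2370 bp in the mutant. Over all 245 genes of the set the median length was 4131 bp and 21.6% exceeded 10000 bp, against 2005 bp and 4.75% of the 19983 protein-coding genes in RefSeq. A long gene has more bases for a peak to meet.

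Some giant genes held many peaks. *ttn-1*, the worm titin of muscle, spans 81718 bp on chromosome V and held 23 peaks in 10 regions, from all 3 WT libraries and 1 mutant library. *anc-1*, which anchors nuclei to the cytoskeleton, held 35 peaks in 14 regions, and *cla-1*, an active zone protein of synapses, 9 peaks in 8 regions, both in 3 WT and 1 mutant libraries. Clusters of peaks also lay in ZC247.1 (31 peaks, 7 regions), ZC178.2 (23 peaks, 8 regions) and Y81B9A.2 (22 peaks, 3 regions), for which no role is given here. They and *cla-1* were singled out after their values were seen, and their peaks are not independent of each other.

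Gene models matter for these assignments, because the lists use Ensembl release 93. By symbol, 214 of the 245 genes were found in RefSeq (WBcel235), and in 30 of the 214 no peak touched the RefSeq span of the same gene. Y81B9A.2 spans 6555 bp in the lists and 511 bp in RefSeq, so that none of its 22 peaks touched the latter. For *sod-2*, the mitochondrial superoxide dismutase, the spans are 18688 and 1257 bp, and for *ucr-2.1*, a complex III gene, 53179 and 2784 bp, and their single peaks lay outside the shorter models. Among the 30 were also *rpa-2*, *hsp-3*, *dnj-13*, *iff-2*, *tba-2*, *snr-4*, *nhr-61*, Y59A8B.24, B0286.1 and ZK218.8, which appear below. With RefSeq spans the strain difference in 5′ coverage was 24.6 percentage points (exact permutation p = 0.1).

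Peaks that shared at least 1 bp across the 6 lists were merged, which gave 314 gene-overlapping regions among the 957 regions on the 5 chromosomes with assigned genes. A region counted as held by a strain with peaks in 2 or 3 of that strain's lists. Both strains held 26 gene-overlapping regions (8.28%), whereas 15.9% of all 957 regions were held by both. A peak in all 6 libraries was found in 9 (2.87%), against 7.31% of all regions. A single library accounted for 178 regions (56.7%), against 47.6% of all. The 643 other regions on these chromosomes gave 19.6% for both strains. These shares were not tested, because libraries share their partners.

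Regions found in 1 strain alone leaned towards the mutant. All 3 mutant libraries and no WT library had a peak in 23 gene-overlapping regions (7.32%), against 4.49% of all 957. All 3 WT libraries and no mutant library had one in 6 (1.91%), against 3.55% of all. Of the 23, 14 covered a 5′ end, and of the 6 none did. Among the 101 regions that covered a 5′ end, 76 came from mutant libraries only, 9 from WT libraries only and 16 from both. The 213 regions that did not cover one were spread more evenly, with 72, 85 and 56. Of all 1218 regions, chromosome III and mitochondrial DNA included, 37.8% came from mutant libraries only, 34.7% from WT libraries only and 27.4% from both.

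**Figure D3:**
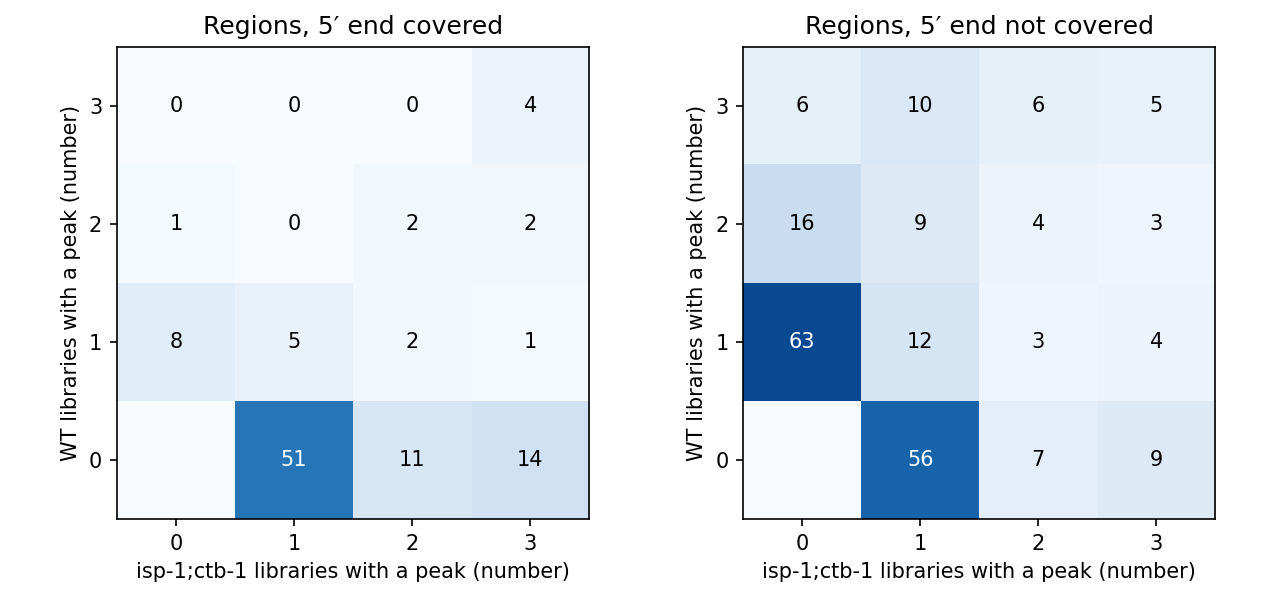
Number of gene-overlapping regions by the number of WT libraries (vertical) and mutant libraries (horizontal) with a peak, for regions that covered a 5′ end (left) and the others (right). On the left 14 regions sit at 3 mutant and 0 WT libraries and none at 3 WT and 0 mutant libraries; on the right these numbers are 9 and 6.

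By gene, 109 genes had a covered 5′ end in any library. Of these, 83 were covered in the mutant only, 12 in WT only and 14 in both, which is 53.8% of the 26 WT genes and 14.4% of the 97 mutant genes. Of the 83, 60 were covered in 1 mutant library alone, and of the 12, 11 in 1 WT library alone. Over all 1218 regions the shares were 37.8% mutant only, 34.7% WT only and 27.4% both. Genes with a body peak in both strains numbered 43, which is 57.3% of those in WT and 41.0% of those in the mutant. The split of the 109 genes was not tested or set against that of all assigned genes. The 10 genes covered in all 3 mutant libraries and no WT library were *rpa-2*, *gsa-1*, *cel-1*, *hsp-3*, *his-37*, *tos-1*, *fbxc-4*, Y95B8A.6, Y59A8B.24 and Y105C5A.1272. They were named after their values were seen, apart from those given below, and for 3 of the 10 (*rpa-2*, *hsp-3* and Y59A8B.24) no peak met the RefSeq model. *gsa-1* encodes a stimulatory G protein alpha subunit, *cel-1* the mRNA capping enzyme and *tos-1* a known target of alternative splicing. *enpl-1*, the endoplasmic reticulum chaperone GRP94, was covered in all 3 mutant libraries and in 1 WT library.

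The best ranked of the 23 mutant regions lay in the body of *ztf-22*, a zinc finger gene, which is nested in Y48C3A.5 (chromosome II, 13281474 to 13282409). Its fold enrichment was 3.28, 2.22 and 3.06 in the 3 mutant libraries. The region at *rpa-2*, a subunit of the single-stranded DNA binding complex RPA, covered its 5′ end in the model of the lists (chromosome I, 4769209 to 4769861) with 2.82, 2.22 and 2.78. The RefSeq model of *rpa-2* starts at 4770292, beyond the region. No WT library had a peak at either place.

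Next in rank were *ppfr-1*, a regulatory subunit of protein phosphatase 4, *ntl-2* with B0286.1, and *let-526*, an ARID subunit of the SWI/SNF chromatin remodeller. The peak in *ppfr-1* lay in the gene body (chromosome I, 9381164 to 9381894) with 2.52, 1.99 and 2.24. The region on chromosome II from 4376720 to 4377309 had 2.40, 2.15 and 2.16. It lay inside B0286.1 in the model of the lists, which overlaps that of *ntl-2*, a subunit of the CCR4-NOT deadenylase. In 1 library it covered the 5′ end of *ntl-2*. The RefSeq model of B0286.1 starts at 4378658, beyond the region. In *let-526* the region lay in the body (chromosome I, 5316028 to 5316842) with 2.36, 2.32 and 2.13. All 5 regions stood above the mitochondrial DNA peak of the same lists, by ratios of 1.28 to 2.46.

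Regions of the 3 WT lists alone lay in gene bodies. *clec-122*, a C-type lectin gene, had a body peak (chromosome II, 3106294 to 3107043) with 1.81, 1.57 and 1.80 in the 3 WT libraries. In *ttn-1*, 3 regions had 1.43 to 1.97, all 27226.5 bp or more from its 5′ end (chromosome V, 6171815 to 6175568). A region of ZC247.1 (chromosome I, 10266698 to 10267583) had 1.65, 1.85 and 1.59. All 5 regions stood below the mitochondrial DNA peak of the same lists, by ratios of 0.719 to 0.957. A threshold on calls lies behind each absence, and the strain difference at single regions was not tested.

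The 9 regions with a peak in all 6 libraries mostly stood near or under the fold enrichment of mitochondrial DNA. In *aex-5*, which encodes a proprotein convertase, the region covered the 5′ end (chromosome I, 14855454 to 14856292) with 2.07, 2.01 and 1.89 in WT and 1.33, 1.45 and 1.67 in the mutant. The same 6 values to 2 decimals, except 2.06 in WT library 1 at *rab-3*, stood at *rol-6*, a cuticle collagen gene (chromosome II, 8731331 to 8735457), and at *rab-3*, a synaptic vesicle GTPase (chromosome II, 5724696 to 5725987). The mitochondrial DNA peak of these lists had 2.06, 2.04, 1.89, 1.33, 1.45 and 1.66. The ratio to it was between 0.987 and 1.01 at all 3 regions.

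Some of these regions lie at genes whose DNA was also in the transgene. *rol-6*, *rab-3* and *vha-6* sequences were in the injected plasmids by the study's methods. The region at *aex-5* lies beside *unc-54*, whose 3′ end is a common part of worm plasmids but is not named in those methods. The region at *vha-6*, the intestinal proton pump subunit, and VW02B12L.2 (chromosome II, 11438400 to 11441081) had ratios of 0.901 to 1.00. Thus 3 of the 9 lay within 1000 bp of a gene named in the methods and 1 within 1000 bp of *unc-54*, and copies in the transgene and in the chromosome cannot be told apart. Of the 5 regions within 1000 bp of *klf-1*, the gene fused to YFP, none had a peak in all 6 libraries. With regions near these genes and *unc-54* left out, 5 remained in all 6 libraries and 22 of 26 in both strains.

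**Figure D4:**
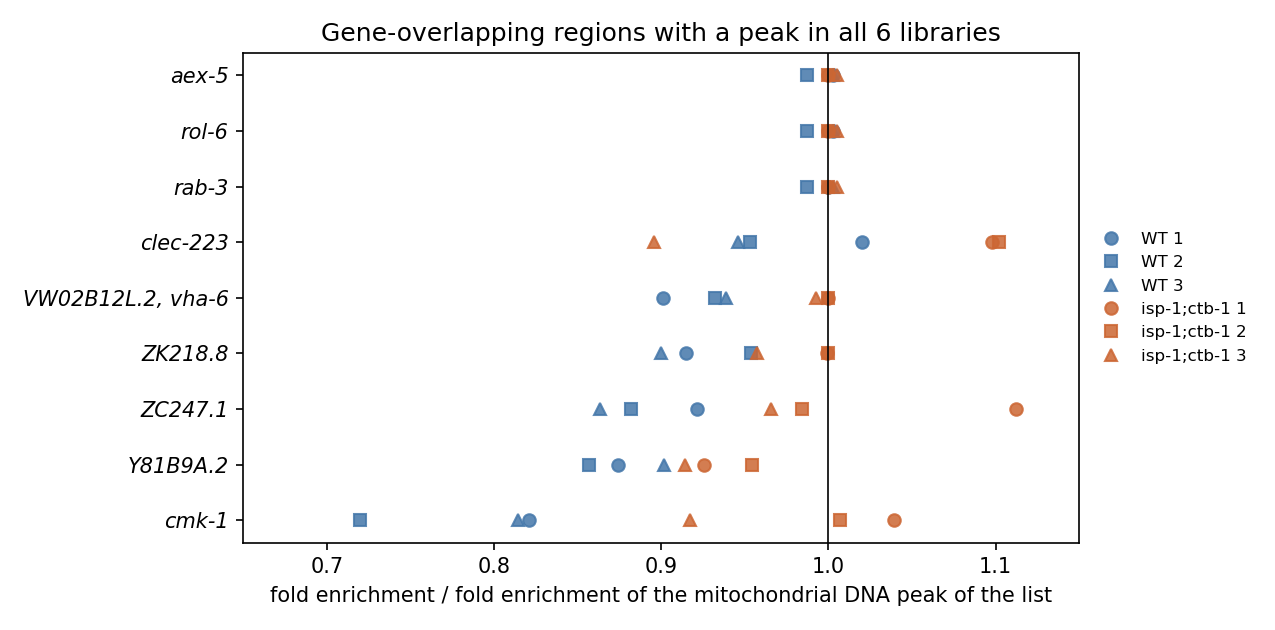
Fold enrichment of the 9 gene-overlapping regions with a peak in all 6 libraries, divided by that of the peak on mitochondrial DNA in the same list (no unit, line at 1), by gene and library. *aex-5*, *rol-6* and *rab-3* lie between 0.987 and 1.01 in every library.

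Of the other 5, all but ZK218.8 were less tied to that level. In *clec-223*, a C-type lectin gene (chromosome V, 11273788 to 11274561), fold enrichment was 2.1, 1.94 and 1.78 in WT and 1.46, 1.60 and 1.49 in the mutant. In *cmk-1*, a calmodulin-dependent kinase (chromosome IV, 1831081 to 1831636), it was 1.69, 1.47 and 1.54 against 1.38, 1.46 and 1.52. The region of ZC247.1 (chromosome I, 10267688 to 10271939), the longest of the set with 4252 bp, had 1.90, 1.80 and 1.63 against 1.48, 1.43 and 1.61. Y81B9A.2 (chromosome X, 9187358 to 9188779) and ZK218.8 (chromosome V, 17115485 to 17116125), a pseudogene in RefSeq, made up the rest. Y81B9A.2 had 1.80, 1.75 and 1.70 in WT and 1.23, 1.39 and 1.52 in the mutant. ZK218.8 had 1.89, 1.94 and 1.70 in WT and 1.33, 1.45 and 1.59 in the mutant. In mutant libraries 1 and 2 the ZK218.8 values equalled those of mitochondrial DNA to 2 decimals, and elsewhere they were lower. No peak of Y81B9A.2 or ZK218.8 touched the RefSeq span of its gene. Fold enrichments are set against each list's own input and are not compared between strains here.

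Peaks within 5% of the mitochondrial DNA value numbered 116 of the 633 (18.3%), against 24.8% of all peaks on the 5 chromosomes. They were 32, 38 and 6 in WT and 6, 13 and 21 in the mutant. Without them the strain difference in 5′ coverage was 29.3 percentage points, and 8 regions were held by both strains. The stated threshold passed 100 of the 633 peaks (15.8%), against 21.3% of all peaks with an assigned gene, and no region held by both strains was left under it.

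The highest fold enrichments among gene-overlapping peaks lay elsewhere. In E02H1.2 (chromosome II, 9588087 to 9589454), a region had 1.86, 4.33 and 4.57 in mutant libraries and 2.76 in WT library 1. Its peak covered the 3′ end in mutant libraries 2 and 3 and lay in the gene body in mutant library 1 and WT library 1. It was the highest gene-overlapping peak of mutant libraries 2 and 3, where it was first of all peaks. It was also that of WT library 1, at rank 3 of all peaks. *linc-128*, a long intergenic non-coding RNA (chromosome V, 1151138 to 1151805), had 3.41, 2.66 and 2.89 in the mutant and 2.06 and 2.15 in WT libraries 1 and 2. The highest gene-overlapping peak of WT library 2, at rank 4 of all its peaks, lay in C14A6.8 with 2.61 and was found in that library alone. That of WT library 3, at rank 2, lay in *cutl-4*, a cuticlin-like gene, with 2.42, where WT libraries 1 and 2 had 2.21 and 1.84 and mutant library 1 had 1.77.

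Families around the intestine and the mitochondrion were then counted, over genes on the 5 chromosomes with assignments. Of all 17329 protein-coding genes there, 1.39% were overlapped and 0.617% had a covered 5′ end, so that at the rate of all genes families of these sizes would have few or no members in the set, and none was tested. No cytochrome P450 gene (0 of 68), no glutathione or UDP-glucuronosyl transferase gene of phase II detoxification (0 of 107), no collagen gene of the *col* family (0 of 144) and no mitochondrial ribosomal protein gene (0 of 48) was overlapped. Peaks upstream of a gene are outside these counts. The paper reports KLF-1 binding just upstream of several *cyp* genes, with ChIP-qPCR at the promoter of *cyp-13A11*, so these zeros do not bear on that result. Of cytosolic ribosomal protein genes, 2 of 60 were, *rpl-12* (2.47) and *rpl-7A* (2.25), both over the 5′ end in mutant library 1 alone. Of the respiratory chain, 3 of 33 were. *cco-1*, a cytochrome c oxidase subunit, had a 5′ peak in WT library 2 (2.18) and in mutant libraries 1 (2.33) and 3 (2.14), and *atp-3*, a subunit of ATP synthase, in mutant libraries 1 (2.45) and 3 (2.1). The third was *ucr-2.1*, in WT library 2 alone (2.31), outside the RefSeq model.

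Chaperone and proteasome genes were overlapped in 5 of 75 cases, all over the 5′ end in the models of the lists, while the peaks of *hsp-3* and *dnj-13* met no base of the RefSeq models. *hsp-3*, the BiP chaperone of the endoplasmic reticulum, had 1.84, 2.06 and 2.24 in the 3 mutant libraries and no WT peak (chromosome X, 6091926 to 6092358), and was the only 1 of 10 genes of the unfolded protein response. The heat shock genes *hsp-16.11* and *hsp-16.49*, which are divergently paired and have near-identical copies, shared 1 peak in WT library 2 (2.05). A peak of mutant library 1 (2.00) lay in the same region without overlapping either. *hsp-16.1* had a peak in 1 WT library, and *dnj-13*, a J-domain co-chaperone, in mutant library 1 (1.94). The 1 antioxidant gene of 21 was *sod-2*, in mutant library 1 (2.01), outside the RefSeq model.

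Histone genes had 12 of 69, 10 of them over the 5′ end, but their near-identical copies make each assignment uncertain. For 3 of the 12 the lists give several histone names in 1 cell, and these are counted but not named. *his-37*, an H4 gene, had 2.47, 1.93 and 2.27 in mutant libraries and no WT peak. *his-43* had a peak in 1 library of each strain, and *his-54* and *his-20* in WT library 1. Apart from *his-37* and *his-43*, every histone gene of the set had its peak in 1 library alone. C-type lectin genes had 4 of 225, none over the 5′ end, and besides those above they were *clec-50* in 1 library of each strain and *clec-170* in WT library 2. Nuclear hormone receptor genes had 4 of 261, of which *nhr-47* had a 5′ peak in mutant libraries 1 (2.13) and 3 (2.16), and *nhr-88*, *nhr-61* and *nhr-3* a body peak in 1 library each, that of *nhr-61* outside the RefSeq model.

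Of the translation factors, 1 of 32 was overlapped, *iff-2*, an eIF5A gene, whose region had a peak in all 3 mutant libraries (2.28, 1.90 and 2.24) and covered the 5′ end in 2. Of the actin, tubulin and myosin genes, 2 of 21 were, *tba-2* and *act-4*, each with a body peak in mutant library 1. Of the 983 genes of structural and spliceosomal RNAs and their proteins, 1 was, the snRNP protein gene *snr-4*, also in that library. The peaks of *iff-2*, *tba-2* and *snr-4* met no base of the RefSeq models of these genes. The lists assign protein-coding genes, lincRNAs and miRNAs only, so the RNA genes of this group had no chance to enter. The 3 genes on these chromosomes that the study's methods place in the injected mixture, *vha-6*, *rab-3* and *rol-6*, were all overlapped, and *unc-54* was not. Among tissue markers, 1 of 8 intestinal genes (*vha-6*) and 2 of 9 genes of other tissues (*rab-3* and *rol-6*) were, and these are the same 3 genes.

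In all, the 245 genes comprised 241 protein-coding genes, 3 lincRNA genes and the miRNA gene *mir-52*. Peaks of both strains were found at 58, of the mutant only at 142 and of WT only at 45, and 136 genes had a peak in 1 library alone. By region, 47.1% of the 314 gene-overlapping regions were of the mutant only, 29.9% of WT only and 56.7% of 1 library. Over all 1218 regions these shares were 37.8, 34.7 and 48.5%. Peaks with an assigned gene numbered 277, 321 and 150 in WT and 398, 195 and 311 in the mutant. The split of genes was not tested. *mir-52* had peaks in 2 WT and 3 mutant libraries, with a highest fold enrichment of 2.73. *egl-30*, a Gq alpha subunit, had peaks in 2 WT and 3 mutant libraries and a highest value of 2.67. In 25 cases 1 peak overlapped 2 or more genes, and these genes cannot be told apart by position.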

How the data were processed

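ChIP and input DNA of 12 libraries was sequenced. The authors aligned reads with BWA, of a version the sources here do not state, checked them with FastQC 0.10.1, called peaks with MACS2 2.0.10 per ChIP library with the matching input as control, and assigned genes of Ensembl release 93 in the QuickNGS pipeline. Methods give 2000 bp up- or downstream as the limit, whereas upstream peaks of the lists were centred up to 4998.5 bp from a 5′ end. The deposited fold enrichment is a ratio of ChIP over input per peak and was used within its own list. The deposited p-value is blank for peaks without a gene, and the test behind it is not stated in the sources here. The lists give no reads per peak, so the depth behind single peaks is unknown. The deposited table of the strain comparison holds the authors' folds and p values and was not used.

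Peaks were sorted by the strand and the ends of the gene on their line. A peak over the 5′ end counted as such, also where it covered both ends (15 peaks). Strains were compared by two-sided exact permutation tests over libraries, and peak classes within libraries by exact sign-flip tests. Benjamini-Hochberg adjustment of the sign-flip tests was made within families of 2 contrasts each. It was not made over all the contrasts together, which would give larger adjusted values. Replicate numbers did not pair the libraries. Of the names of the 245 genes, 29 were missing or ambiguous in the lists, and 25 of them were taken from the RefSeq gene (WBcel235) that matched the span to 90% in both directions. Members, the 16 gene lists and tests were chosen with earlier results of these data known. Named regions were those with a peak in all 6 libraries, the 5 best ranked in all 3 libraries of 1 strain only (by mean rank of fold enrichment), up to 4 members per gene list, the highest peak per library and the 5 longest; others named were singled out after their values were seen. The 5 longest include *anc-1* (2275 bp) and H03A11.2 (1776 bp). Alternatives were the overlap required, the threshold, peaks near the mitochondrial DNA fold, long peaks, libraries left out, the replicate block, recurrence and merging, and others chosen after seeing the data. A planned count of KLF elements in promoters was not run, since no sequence was used. Scripts were tested on simulated peaks. Python 3.11.15, numpy 2.4.6, pandas 2.3.3, scipy 1.17.1, statsmodels 0.14.6 and matplotlib 3.10.9 were used.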

Additional observations from a re-analysis of the deposited data

Results flagged for a closer look

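Chromosome III is the data outside the comparisons above. Its 607 peaks had no assigned gene in any list, and 140 of them overlapped a protein-coding gene of the RefSeq table. By library, chromosome III held 110, 125 and 36 peaks in WT and 143, 85 and 108 in the mutant. The part of the gene they covered was not analysed, since the RefSeq table gives no strand, and groups of 3 libraries are too small for a test for single outlying libraries.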

How the results depend on the processing

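The number of gene-overlapping peaks and their share of peaks with an assigned gene depended on settings in direction, with main differences (*isp-1;ctb-1* mutant minus WT) of 20.3 peaks and 0.849 percentage points. The number changed to -6.67 with 50% overlap and -0.667 under the stated threshold, the share to -7.12 with 50% overlap and -0.0884 with RefSeq spans. Without single libraries the number ran from -5.33 (without WT replicate 3) to 45.2 (without mutant replicate 2), and the share from -2.86 (without WT replicate 3) to 2.73. The length ratio became 0.0253 with 1 value per gene, and the fold enrichment ratio to upstream peaks passed 0.05 at 0.0420 (1 value per gene), 0.0782 (mean) and 0.169 (stated threshold). The ratio of 5′ to body peaks ran from 0.12 to 0.16 without single libraries, where 5 libraries cannot go below an exact permutation p of 0.0625.

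The share over the 5′ end kept its direction under all settings tried. Without single libraries the difference ran from 21.2 to 29.9 percentage points, and with the replicate block it was 26.7 with an exact sign-flip permutation p of 0.25, the smallest that 3 pairs allow. Replicate numbers did not pair the libraries (correlations of -0.10, 0.14 and -0.21 between same-numbered libraries). With that block the number differed by 20.3 and the share by 0.849, with p = 0.75 for both in the exact sign-flip test.

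Recurrence moved most. Regions held by both strains numbered 0 under the stated threshold, 8 without peaks near the mitochondrial DNA fold, 72 or 9 with 1 or 3 of 3 libraries required, and 14 (without WT replicate 1) to 25 without single libraries. The lower values also came without WT replicate 2 (16) and without mutant replicate 3 (15). Regions in all libraries numbered 0, 1, 5 and 5 under the threshold, without the mitochondrial DNA fold, with 50% overlap and without plasmid DNA, and 9 to 14 without single libraries, with 14 for WT replicate 3 or mutant replicate 1 left out. Regions of 1 strain alone numbered 3 and 3 under the threshold and 14 for the mutant with 50% overlap. Without single libraries they ran from 7 to 22 for WT (22 without WT replicate 3, 13 without mutant replicate 3) and from 23 to 38 for the mutant (38 without its replicate 2). The difference in recurrence between gene-overlapping and all other regions was -9.20 percentage points, -11.3 without chromosome III, -6.05 and -5.65 with 1 or 3 libraries required, -5.71 without the mitochondrial DNA fold and -1.87 under the threshold. Without single libraries it ran from -11.7 to -4.24, with -4.73 for mutant replicate 3 and -4.24 for its replicate 2 left out. The cause was not tested.

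At 45 named places the number of libraries with a gene-overlapping peak changed by over 1.5 times at 34 under the threshold, 14 with 50% overlap, 9 without the mitochondrial DNA fold and 2 without peaks over 2000 bp.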

Other observations

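A few further regions with a peak in all 3 mutant libraries and no WT library are given here, picked out after their values were seen and belonging to no list that was counted. *pbrm-1*, a polybromo subunit of the SWI/SNF complex, had a body peak (chromosome I, 7500245 to 7500844) with a fold enrichment of 2.52, 2.11 and 2.03. A second region in *let-526*, another SWI/SNF subunit, had 1.79, 1.97 and 2.13 (chromosome I, 5312770 to 5313462). *drap-1*, which encodes a corepressor of TATA-box transcription, had 2.67, 2.20 and 2.01 in its body (chromosome V, 9730972 to 9731611), and *din-1*, a corepressor partner of the nuclear receptor DAF-12, had 2.16, 1.95 and 2.24 (chromosome II, 11619810 to 11620491).

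The following places were likewise picked out after their values were seen. *gsa-1* had 2.52, 2.04 and 2.04 in the mutant libraries (chromosome I, 1068014 to 1068624). *egl-30*, a Gq alpha subunit, had a body region in 2 WT and 3 mutant libraries (chromosome I, 1836232 to 1837372). A region inside *ocrl-1* was found in 2 libraries of each strain (chromosome I, 9721973 to 9722720). It covered the 5′ end of *eat-16*, a regulator of G protein signalling, in 2 mutant libraries and no WT library.

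Fold enrichments were coarse in mutant library 1, where the 162 gene-overlapping peaks took 72 distinct values and 12 of them shared the value 2.03. Of the 44 gene-overlapping peaks of WT library 3, the shortest list, 90.9% met a peak of WT library 1 and 95.5% one of WT library 2, whereas of the 162 in mutant library 1, 28.4% and 40.1% met a peak of the other 2 libraries of that strain.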
